A study of Mus musculus with 8 samples.

Results

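Cleavage factor Im (CFIm) is the part of the pre-mRNA 3′ end processing machinery that binds UGUA motifs upstream of polyadenylation sites. Its small subunit, encoded by Nudt21, holds the RNA, and a dimer of this subunit is bound by larger subunits encoded by Cpsf6 or Cpsf7, which carry the arginine- and serine-rich tails that contact the rest of the machinery. CFIm helps cells use distal polyadenylation sites, and loss of the small subunit is known for shortening many 3′UTRs. The rows of these 3 genes were taken by symbol from the 21080 symbols measured, and all 3 were present at both times.

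RNA-seq was performed on bone marrow-derived macrophages (BMDMs), which are bone marrow cells grown with the growth factor M-CSF. Nudt21-cKO mice (Nudt21 fl/fl LysM Cre) carried loxP sites around exons 2 and 3 of Nudt21 and a Cre recombinase driven by LysM in myeloid cells, and WT denotes littermates of matched sex that carried the LysM Cre as well, all on the C57BL/6 background. Each genotype was measured unstimulated (0 h) and after 50 ng/ml IFNγ overnight and then 50 ng/ml LPS for 4 h, with 2 samples in each of the 4 groups. No sample is a single animal, since cells of 2 mice were combined in each. The age of these mice is not given in the sources used here, and the labels carry the stimulation for the 0 h samples too, which were taken as unstimulated from their titles. Replicates 1 and 2 were WT and replicates 3 and 4 were cKO at both times, and whether a number stands for the same mice at both times is not stated.

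The value deposited for each gene and sample has no named unit. It was read as the mean number of reads over a base, called coverage below. It was used as deposited, with no scaling between samples added in the main tests. Coverage summed over all genes was 14950347 to 17954882 per sample, and the cKO to WT ratio of these sums was 0.12 at 0 h and 0.21 at 4 h on the log2 scale. The 8 macrophage markers summed to 120530.0 to 129084 in WT and 123746 to 132928 in cKO at 0 h and to 64070 to 65060 and 70588 to 75278 at 4 h, with 1 called higher and 2 lower in cKO at 0 h and 2 higher at 4 h. The defining T cell marker Cd3e had a mean coverage of 0.128 over the 8 samples. The 6 T cell markers summed to 173 to 201 in WT and 141 to 147 in cKO at 0 h. At 4 h they summed to 19.0 to 29.9 and 16.3 to 25.7, with 0 called at either time. The 5 B cell markers summed to 126 to 143 in WT and 67.9 to 73.5 in cKO at 0 h. At 4 h their sums were 10.5 to 11.04 and 1.70 to 8.08. Of the B cell markers, Cd79b was called lower in cKO at 0 h. The 5 fibroblast markers summed to 86.9 to 193 in WT and 155 to 222 in cKO at 0 h and to 16.4 to 92.4 and 80.7 to 116 at 4 h, with 2 of them called higher in cKO at 0 h and 1 at 4 h. The 6 neutrophil markers summed to 18586 to 19509 in WT and 21173 to 28230 in cKO at 0 h, with 0 called at either time, and their sums overlapped at 4 h. The 5 dendritic cell markers overlapped at 0 h and summed to 1229 to 1952 in WT and 1040.1 to 1073 in cKO at 4 h, with 1 called higher and 1 lower. The 6 erythroid markers summed to at most 23.1 in any sample, with Alas2 called lower in cKO at 0 h and Hba-a2 higher at 4 h. For comparison, the same rule for a call picked 8.99% of all tested genes as raised without Nudt21 and 5.61% as reduced, in unstimulated cells. After stimulation these shares were 20.8% and 4.17%. The part of the marker genes in the results was not tested.

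Nudt21 lies on chromosome 8 of GRCm38, at chr8:94015496-94037031 on the minus strand. Its longest annotated transcript has 7 exons and 5010 bases. The floxed exon 2 (chr8:94032302-94032502) and exon 3 (chr8:94031144-94031207) are coding throughout. Together they hold 265 bases, 38.7% of the coding length, and this number leaves a remainder of 1 when divided by 3. They are a small part of the whole transcript, 5.29% of the GENCODE transcript and 24.0% of it when it is ended where the RefSeq gene ends (chr8:94019403). The gene-level coverage of a deleted allele therefore also counts any reads from its remaining exons. The study's RT-qPCR primers for Nudt21 are shown because both lie inside the floxed exons, the forward primer in exon 2 (chr8:94032378-94032400) and the reverse primer in exon 3 (chr8:94031168-94031189). They frame 139 bases of the intact transcript.
Nudt21 forward primer, exon 2: gattgggatgagaaggactgtag
Nudt21 reverse primer, exon 3: ttcaacttcatcttctcctggg

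Cpsf6 lies at chr10:117344673-117380015 on the minus strand and Cpsf7 at chr19:10525266-10547653 on the plus strand. The subunits' own transcripts carry the motif that CFIm reads. UGUA, written TGTA in DNA and searched on the transcribed strand only, occurred 28 times in the 4187-base 3′UTR of Nudt21-201, 47 times in the 4798-base 3′UTR of Cpsf6-201 and 8 times in the 1967-base 3′UTR of Cpsf7-201. This is 6.69, 9.80 and 4.07 motifs per kb, where the median over 24920 annotated 3′UTRs of at least 500 bases was 5.33. Cpsf6 also has a short annotated form, which ends after a 466-base 3′UTR with 4 motifs. Nudt21 has one that ends after a 235-base 3′UTR with 4 motifs, close to the end of the RefSeq gene, and Cpsf7 one with the same coding length as its long form and a 227-base 3′UTR with 2 motifs. The short forms of Cpsf6, Nudt21 and Cpsf7 had 8.58, 17.0 and 8.81 motifs per kb. The last motif of the long Nudt21 form lies beyond that RefSeq end. Each of these 6 transcripts had a TGTA in its last 100 bases, as did 51.2% of 40212 protein-coding transcripts with a 3′UTR of at least that length. The TGTA nearest to each annotated 3′ end is shown in capitals, read 5′ to 3′ along the transcript from the GENCODE M21 sequences.
Nudt21-201, chr8:94015567-94015596, minus strand: atgtttttatattTGTAaagcaaaagtttg
Nudt21 short form, chr8:94019460-94019489, minus strand: tcatactttttttTGTAcattaaagaaagt
Cpsf6-201, chr10:117344683-117344712, minus strand: atggtatttatctTGTAttgaaaataaaaa
Cpsf6 short form, chr10:117349046-117349075, minus strand: ctagatgtagtgtTGTAataaactgtttat
Cpsf7-201, chr19:10547617-10547646, plus strand: aggttgaaaattgTGTAataaacttgatga
Cpsf7 short form, chr19:10540995-10541024, plus strand: tcagaaaaagattTGTAatagaaatgttct
The deposited table has 1 value per gene, so a change in which of these ends was used and a change in the number of transcripts cannot be told apart in it, and a motif match is only a description of the sequence.

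The RNA of the deleted gene fell and that of both larger subunits was higher without it, by very different amounts. Nudt21 coverage fell by 75.6% at 0 h and by 77.2% at 4 h. Cpsf6 was 3.05-fold higher at 0 h and 3.85-fold higher at 4 h in cKO. Cpsf7 was higher by less, and passed the rule for a call only after stimulation.

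**Figure D1:**
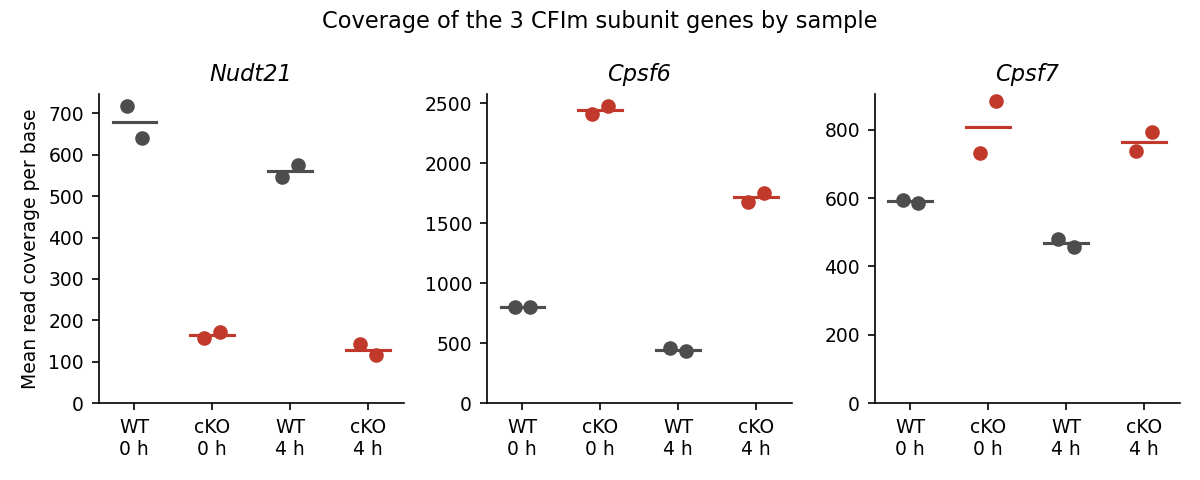
Mean read coverage per base (linear axis from 0) of Nudt21, Cpsf6 and Cpsf7 in the 8 samples, with WT in grey and Nudt21-cKO in red. Points are samples and lines are group means (n = 2); the cKO samples of Nudt21 (115 to 172) lie below all WT samples and those of Cpsf6 (1676 to 2477) and Cpsf7 (731 to 884) lie above all WT samples.

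In unstimulated cells Nudt21 had a coverage of 718 and 641 in WT, against 158 and 172 in cKO. After stimulation WT stood at 547 and 575, against 142 and 115 for cKO. The lowest WT sample lay above the highest cKO sample at each time, and the groups did not overlap. The means were 679 ± 54.4 and 165 ± 9.87 at 0 h and 561 ± 20.1 and 129 ± 19.2 at 4 h (SD, n = 2 samples). Genotypes were compared within each time by limma on log2(coverage + 0.1), and calls required a change of more than 1.5-fold and an unadjusted p under 0.05. Nudt21 was called lower at both times, with a log2 fold change of -2.04 at 0 h (SE 0.13, adjusted p = 0.0462 from limma) and -2.13 at 4 h (SE 0.16, adjusted p = 0.0445 from limma). In bulk samples, fewer cells with the intact gene and less of its RNA in each cell cannot be told apart. Any reads from the remaining exons of a deleted allele are part of this coverage as well. The study reports that RT-qPCR and immunoblots of cKO BMDMs showed Nudt21 to be depleted efficiently. Of 8610 tested genes averaging 100 or more in coverage at 0 h, 15 had a lower log2 fold change than Nudt21, and of 8627 such genes at 4 h, 7 did. Over all genes tested, including those of low coverage, Nudt21 ranked 634 from the lowest of 16251 at 0 h and 405 of 14950 at 4 h.

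Cpsf6, the larger subunit with the higher coverage here in unstimulated cells, had a coverage of 804 and 798 in unstimulated WT, against 2406 and 2477 in cKO. After stimulation WT stood at 457 and 433, against 1676 and 1753 for cKO. Every cKO sample was above every WT sample, and the samples of a group differed by little. Group means were 801 ± 4.26 in WT and 2442 ± 49.98 in cKO at 0 h, and 445 ± 17.4 in WT and 1715 ± 54.8 in cKO at 4 h (SD, n = 2). Cpsf6 was called higher at both times. Its log2 fold change was 1.61 at 0 h (95% interval 1.30 to 1.92, adjusted p = 0.0456 from limma) and 1.95 at 4 h (95% interval 1.62 to 2.27, adjusted p = 0.0325 from limma). Among the same abundant genes, 55 had a larger log2 fold change than Cpsf6 at 0 h and 72 did at 4 h, while over all genes tested it ranked 1064 from the highest of 16251 and 1104 of 14950.

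Cpsf7, which can take the place of Cpsf6 in the complex, had a coverage of 595 and 587 in unstimulated WT, against 731 and 884 in cKO. After stimulation WT stood at 479 and 456, against 738 and 792 for cKO. The cKO samples were above the WT samples at each time, but at 0 h they differed from each other by more than the lower one differed from WT. Means were 591 ± 5.999 and 807 ± 109 at 0 h and 467 ± 16.2 and 765 ± 38.0 at 4 h in WT and cKO (SD, n = 2). At 0 h the log2 fold change of 0.44 did not pass (95% interval -0.017 to 0.90, adjusted p = 0.244 from limma). At 4 h Cpsf7 was called higher with a log2 fold change of 0.71 (95% interval 0.37 to 1.05, adjusted p = 0.0652 from limma), which is 1.64-fold. The median gene was itself shifted by 0.10 at 0 h and by 0.31 at 4 h. Relative to that shift Cpsf7 stood at 0.34 and 0.40, Cpsf6 at 1.51 and 1.64, and Nudt21 at -2.14 and -2.44. After median-centring of the samples, the fold change of Cpsf7 at 4 h was 0.37 and no longer a call (adjusted p = 0.255 from limma, and 0.00437 to 0.329 over 16 alternatives), while Nudt21 and Cpsf6 were called under all 16 alternatives tried at each time.

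By this rule 2 of the 3 subunits were called at 0 h, against 14.6% of the 16251 genes tested, with 8.99% of all genes called higher and 5.61% lower. At 4 h all 3 were called, against 25.0% of 14950 genes, with 20.8% called higher and 4.17% lower. The latter split depended on the scale, since the 3112 genes called higher and 624 lower at 4 h became 1552 and 1480 after median-centring and 1530 and 1476 under quantile normalization. Nudt21 and Cpsf6 also had an adjusted p under 0.05 at both times, which 1.03% of genes had at 0 h and 3.86% at 4 h. With 2 samples against 2, an exact permutation test of a single gene cannot go below p = 0.333. Without the variance that limma shares across genes, Nudt21 and Cpsf6 at both times and Cpsf7 at 4 h kept their calls, and none of these had an adjusted p under 0.05 (0.0697 to 0.139). The study's methods describe data points of BMDM experiments as biological replicates from different mice, and p-values here measure the spread between 2 pools per group.

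**Figure D2:**
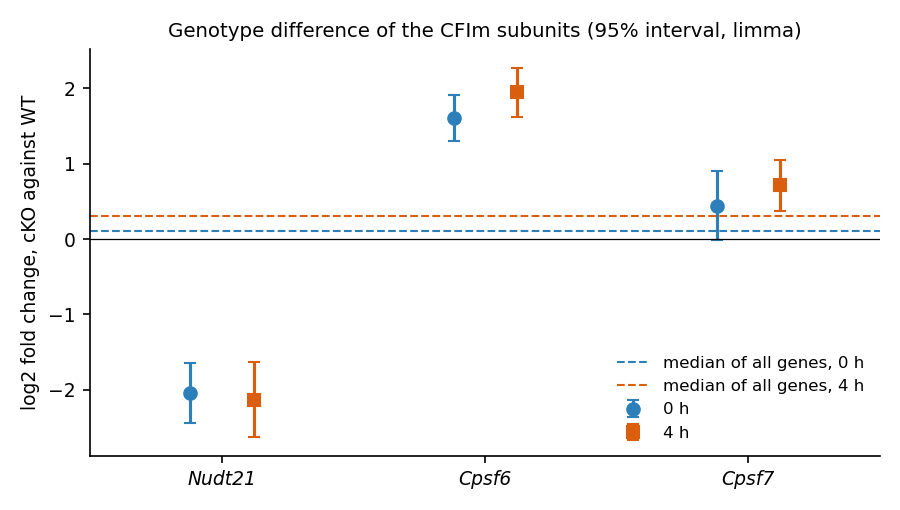
Log2 fold change of cKO against WT for the 3 subunits at 0 h (blue circles) and 4 h (orange squares), with 95% intervals from limma and dashed lines at the median of all genes tested (0.10 and 0.31). The intervals of Nudt21 and Cpsf6 lie far from both lines, that of Cpsf7 at 0 h includes 0, and that of Cpsf7 at 4 h starts at 0.37, above the line at 0.31. After median-centring of the samples, the fold change of Cpsf7 at 4 h was itself 0.37 and no longer a call.

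Ratios between subunits within a sample do not move with sequencing depth. The coverage of Cpsf6 over that of Nudt21 was 1.12 and 1.25 in unstimulated WT, against 15.2 and 14.4 in cKO. After stimulation WT stood at 0.837 and 0.753, against 11.8 and 15.2 for cKO. The ratio was therefore 12.5-fold higher in cKO at 0 h and 16.9-fold higher at 4 h. Nudt21 is the deleted gene, and its fall to 0.24 of WT at 0 h and 0.23 at 4 h by itself raises any ratio to it. The ratio of Cpsf7 to Nudt21 was 0.873 ± 0.061 in WT and 4.87 ± 0.37 in cKO at 0 h, and 0.834 ± 0.059 and 6.03 ± 1.20 at 4 h (SD, n = 2). Its genotype difference was 5.58-fold and 7.17-fold. All cKO samples lay above all WT samples in both ratios.

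The balance of the larger subunits also differed. Cpsf6 over Cpsf7 was 1.36 ± 0.0066 in WT and 3.05 ± 0.35 in cKO at 0 h (SD, n = 2). At 4 h it was 0.952 ± 0.0041 in WT and 2.24 ± 0.040 in cKO (SD, n = 2). In WT the order of the larger subunits thus turned with stimulation, Cpsf6 being above Cpsf7 at 0 h and slightly below it at 4 h, whereas Cpsf6 was above Cpsf7 in every cKO sample. Because how coverage over several transcripts of a gene was combined is not stated, the size of a ratio between genes is less certain than its difference between genotypes. The genotype difference of Cpsf6 over Cpsf7 was 2.24-fold at 0 h and 2.35-fold at 4 h.

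Summed over the 3 genes, coverage was 2072 ± 64.6 in WT and 3415 ± 168 in cKO at 0 h, and 1474 ± 13.4 in WT and 2609 ± 73.6 in cKO at 4 h (SD, n = 2). The sum was 1.65-fold higher in cKO at 0 h and 1.77-fold higher at 4 h, and 1.51-fold and 1.53-fold higher when samples were scaled to equal summed coverage. Nudt21 made up 32.8% of the sum in WT and 4.84% in cKO at 0 h, and 38.1% and 4.95% at 4 h. Cpsf6 made up 38.7% in WT and 71.6% in cKO at 0 h, and 30.2% and 65.7% at 4 h. Cpsf7 made up 28.5% in WT and 23.6% in cKO at 0 h, and 31.7% and 29.3% at 4 h. Its share ranged from 22.2% to 32.3% over all samples, and at each time every cKO sample was below every WT sample. Genotype labels were permuted within each time for the ratios and sums. Each of these exact two-sided tests gave p = 0.0556, the smallest value that 36 assignments allow, before and after adjustment over the quantities tested. For the ratios to Nudt21 the deletion itself sets the direction, so their tests say nothing about the larger subunits.

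**Figure D3:**
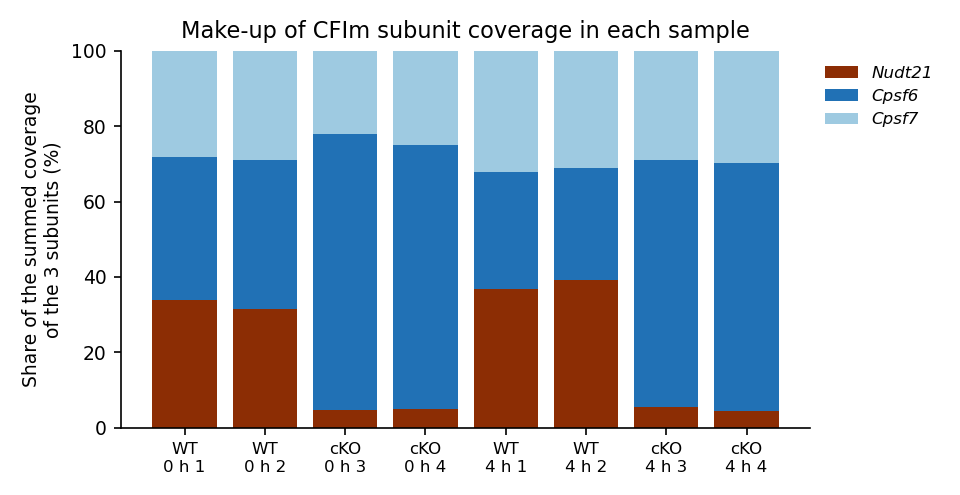
Share of each subunit in the summed coverage of Nudt21, Cpsf6 and Cpsf7 in each of the 8 samples, in percent, as stacked bars from 0 to 100. Nudt21 takes 31.6% to 39.3% in the WT samples and 4.33% to 5.57% in the cKO samples, and Cpsf6 takes 29.6% to 39.4% in WT and 65.6% to 73.0% in cKO.

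The order of the groups for Cpsf6 was WT at 4 h, WT at 0 h, cKO at 4 h and cKO at 0 h from low to high, with no overlap between neighbours. Cpsf7 had the same order, but its cKO groups overlapped, and their means differed by 42.2 where their SDs summed to 147. Nudt21 ran from cKO at 4 h over cKO at 0 h and WT at 4 h to WT at 0 h, without overlap. Stimulation was tested in a fit of all 8 samples, with calls at an adjusted p under 0.05. On the deposited scale Cpsf6 fell in WT by 0.85 (log2 scale, SE 0.089, adjusted p = 6.4e-04 from limma) and in cKO by 0.51 (SE 0.089, adjusted p = 0.0046 from limma), but after median-centring it rose by 0.62 and 0.69 (limma adjusted p = 0.0112 and 0.00797). The median gene stood at -1.24 in WT and -1.03 in cKO, and 58.2% of the 16284 genes were called lower in WT and 54.5% in cKO. The changes of Nudt21 were -0.27 in WT and -0.37 in cKO and those of Cpsf7 -0.34 and -0.07, none of which passed (limma adjusted p = 0.142, 0.0692, 0.0578 and 0.633), but after median-centring all of them were positive and passed, with 1.19 and 0.83 for Nudt21 and 1.13 in each genotype for Cpsf7 (limma adjusted p = 0.00108 to 0.00423).

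The interaction term asked whether genotype acted differently at the 2 times, and it passed for 0 of the 3 subunits and for 3.05% of all genes. Cpsf6 came nearest, with an interaction of 0.34 on the log2 scale (95% interval 0.016 to 0.66, adjusted p = 0.21 from limma). It was the 1 subunit of the 3 with an unadjusted p under 0.05. The interactions of Cpsf7 and Nudt21 were 0.27 (95% interval -0.19 to 0.72) and -0.093 (95% interval -0.61 to 0.43), where the median gene stood at 0.20. That of Cpsf7 was 0.13 without cKO replicate 3 at 0 h and 0.40 without cKO replicate 4 at 0 h. Under quantile normalization the interaction turned sign for each subunit.

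Other genes of the 3′ end processing machinery differed by less than Nudt21 and Cpsf6, and some by more than Cpsf7. The list held 17 genes. It comprised CPSF with its nuclease Cpsf3 and the AAUAAA-binding subunits Cpsf4 and Wdr33, the GU-rich element factor CstF, the termination-linked factor CFIIm, the scaffold Symplekin, the poly(A) polymerases, the nuclear poly(A)-binding protein Pabpn1 and Rbbp6. All 17 were tested. At 0 h 2 of 17 were called higher, where 8.99% of all genes were, and 0 lower, with a median log2 fold change of 0.27 against 0.10 for all genes. At 4 h 3 of 17 were called higher, where 20.8% of all genes were, and 0 lower, with a median of 0.28 against 0.31. By limma 0 of the 17 had an adjusted p under 0.05 at either time, 7 had an unadjusted p under 0.05 at 0 h and 5 did at 4 h, against 21.3% and 34.3% of all genes, and 0 were called higher at 4 h after median-centring, quantile normalization or scaling to equal summed coverage.

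Pabpn1, which coats the growing poly(A) tail, was the gene of this list called at both times. Unstimulated WT stood at 1181 and 931, against 1686 and 2063 for cKO, and stimulated WT at 786 and 746, against 1296 and 1299 for cKO. The groups were apart at each time, with log2 fold changes of 0.83 (SE 0.21) and 0.76 (SE 0.10). At 0 h its call was lost when WT replicate 2, cKO replicate 3 or cKO replicate 4 was left out, with values from 0.66 to 0.98. Papolg, a nuclear poly(A) polymerase, was called at 0 h with 0.94 (SE 0.15), and its value at 4 h was 0.11, which turned negative under median-centring, quantile normalization and equal summed coverage. Cpsf1, the largest CPSF subunit, and the CFIIm subunit Pcf11 were called at 4 h with 0.80 (SE 0.17) and 0.64 (SE 0.096), and stood at 0.18 and 0.46 at 0 h. The call of Cpsf1 was also lost when cKO replicate 3 (0.83) or cKO replicate 4 (0.77) was left out. The lowest values were -0.44 for Sympk at 0 h and -0.18 for Cstf3 at 4 h, neither of which was called.

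**Figure D4:**
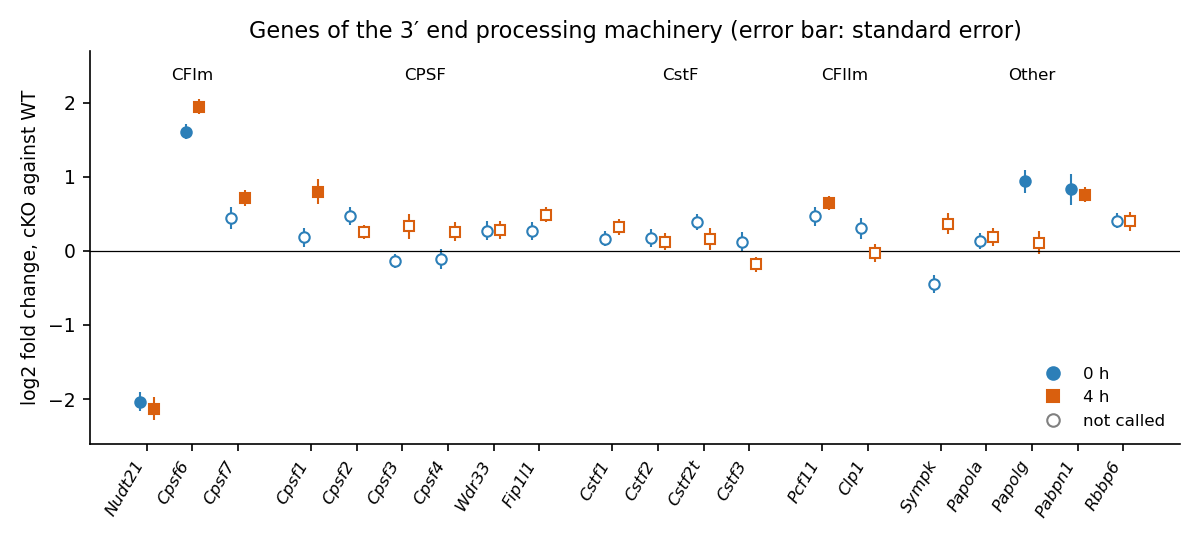
Log2 fold change of cKO against WT (point) with its standard error (bar) for the 3 CFIm subunits and 17 other 3′ end processing genes, at 0 h (blue circles) and 4 h (orange squares), with filled symbols for called genes. Apart from Nudt21 at -2.04 and -2.13 and Cpsf6 at 1.61 and 1.95, the values lie between -0.44 and 0.94.

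Of 7 genes whose products are known to contact CFIm (Fip1l1, Papola, Pabpn1, Virma, Tnpo3, Snrnp70 and U2af2), 1 was called higher at each time, Pabpn1, where 8.99% and 20.8% of all genes were, and its call at 4 h was lost under 4 of 16 alternatives, all of them scalings. Their median log2 fold change was 0.22 at 0 h and 0.19 at 4 h. Tnpo3, the nuclear import receptor of Cpsf6, stood at 0.15 at 0 h and 0.08 at 4 h and was not called. Nudt21 belongs by fold to the Nudix hydrolases, most of which cleave nucleotides. Of 20 other family members tested, 2 were called higher at 0 h (Nudt5 and the decapping enzyme Dcp2) and 1 lower (Nudt19), against 8.99% and 5.61% of all genes. The higher calls at 0 h numbered 1 after median-centring and 0 under quantile normalization, equal summed coverage or centring on genes averaging 100 or more. At 4 h 6 were called higher (Nudt3, Nudt4, Nudt5, Nudt13, Nudt19 and Dcp2) and 0 lower, against 20.8% and 4.17% of all genes, and under these same scalings 2 to 3 were called higher and 1 to 2 lower. Without cKO replicate 3 or without cKO replicate 4, 3 were called higher at 4 h. Their medians were 0.034 and 0.39, and their values ran from -0.76 to 0.68 at 0 h and from -0.52 to 1.34 at 4 h, so Nudt21 lay outside the range of its family at both times.

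The genes next to each subunit on the chromosome were compared as well. Ogfod1, which starts 167 bases from the start of Nudt21 on the opposite strand, had log2 fold changes of 0.12 at 0 h and 0.59 at 4 h and was not called. Bbs2 stood at -0.43 and 0.08 without a call. Lpcat2 lies 1096217 bases from Nudt21, was called lower at 0 h with -0.65 and stood at -0.07 at 4 h. Cpsf7 overlaps Sdhaf2 and Tmem216, which lie on the minus strand. Whether reads were counted by strand is not stated, so reads of overlapping genes cannot be told apart here. Sdhaf2 stood at 0.019 and 0.15 and Tmem216 at -0.27 and -0.34, and neither was called.

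Cpsf6 lies close to the lysozyme genes. Lyz2, the gene into which LysM Cre was inserted, is 62352 bases away (chr10:117277331-117282321), and its near-identical copy Lyz1 is 51805 bases away (chr10:117287797-117292868). Both genotypes carried the Cre, and the number of Cre alleles in each is not given in the sources used here. For Lyz1 unstimulated WT stood at 2534 and 1860, against 5040.4 and 3528 for cKO, and stimulated WT at 913 and 626, against 1859 and 1388 for cKO. For Lyz2 unstimulated WT stood at 594 and 905, against 1158 and 1375 for cKO, and stimulated WT at 455 and 597, against 803 and 1051 for cKO. The cKO samples of both genes were above the WT samples at each time. Log2 fold changes were 0.96 and 1.09 for Lyz1, called at both times, and 0.78 and 0.82 for Lyz2, called at 4 h. These calls were less firm than that of Cpsf6, since those of Lyz1 were lost in 11 of 16 alternatives at 0 h and 10 of 16 at 4 h and that of Lyz2 in 10 of 16 at 4 h, although every alternative kept the direction. On the other side of Cpsf6, Mdm2 (308860 bases away) stood at 0.44 and 0.14 and Slc35e3 at 0.04 and 0.50, without a call. Reads can be shared between Lyz1 and Lyz2, so the split between them is uncertain, and their part in the Cpsf6 difference was not tested.

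**Figure D5:**
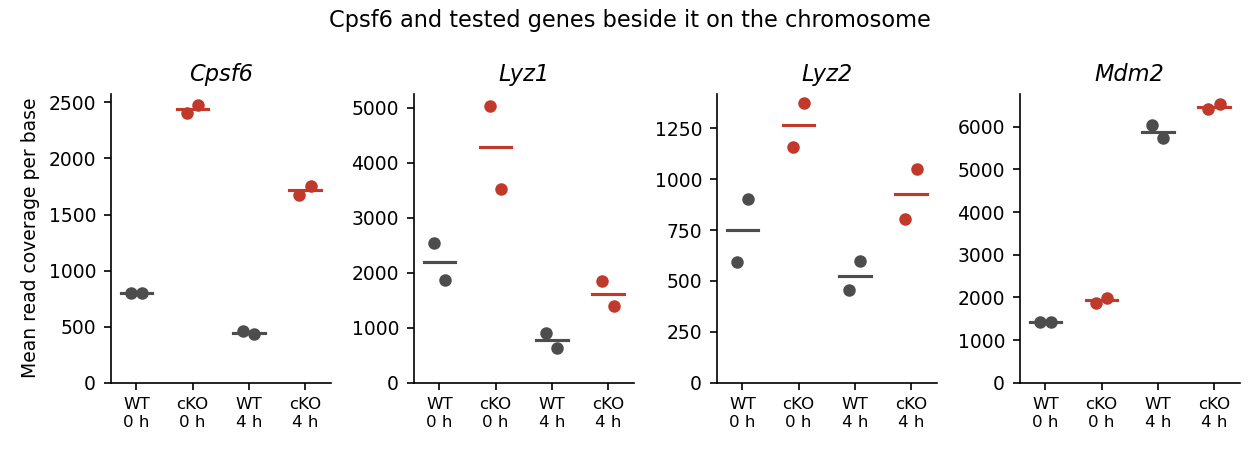
Mean read coverage per base (linear axes from 0) of Cpsf6, its neighbours Lyz1 and Lyz2 on one side and Mdm2 on the other, in WT (grey) and cKO (red) samples with group means as lines (n = 2). Cpsf6, Lyz1 and Lyz2 are higher in both cKO samples at each time, by 1.61, 0.96 and 0.78 on the log2 scale at 0 h, while Mdm2 differs by 0.44 at 0 h and 0.14 at 4 h.

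The genes most like each subunit over the 8 samples were found by Pearson's r of log2(coverage + 0.1) among the 12023 other genes averaging 10 or more in coverage. The 8 samples form 4 groups, so a high r mainly means the same order of the groups, and it is given as a description. Lrmda was most like Nudt21 (r = 0.993), and kept this rank after median-centring. Its mean coverage was 253 in WT and 35.6 in cKO at 0 h, and 236 and 28.3 at 4 h. Elmo1, which activates Rac in engulfing cells, and Tspyl1 followed with r = 0.984 and 0.976, which became 0.777 and 0.873 after median-centring, at ranks 527 and 234. Rybp, a Polycomb complex subunit, was most like Cpsf7 (r = 0.998, first also after median-centring), with mean coverages of 341 and 481 at 0 h and 263 and 447 at 4 h in WT and cKO. Slc41a2 (r = 0.985) and Tapt1 (r = 0.984) came next, at ranks 125 and 88 after median-centring.

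For Cpsf6 the genes were Tg (r = 0.998), Ccdc141 (r = 0.993) and the zinc finger factor Zbtb20 (r = 0.992). Tg, the thyroglobulin gene, was listed at 0 in both WT samples at 4 h, at 12.5 and 13.5 in cKO at 4 h, and at 57.8 and 70.0 in cKO at 0 h against 0.615 and 0.563 in WT. Ccdc141 was listed at 0 in both WT samples at 4 h as well, at 44.6 and 37.2 in cKO at 4 h, and at 199 and 210.3 in cKO at 0 h against 3.64 and 1.24 in WT. Both genes reached the mean of 10 through the cKO samples alone. Their r rests on WT values of 0 at 4 h, where the pseudocount sets the log2 value, and on low WT values at 0 h. Zbtb20 had means of 64.4 in WT and 219 in cKO at 0 h, and of 24.3 and 132 at 4 h. After median-centring other genes were nearest to Cpsf6, with Scamp1 first (r = 0.993). Among the subunits themselves Cpsf6 and Cpsf7 had r = 0.969, and Nudt21 had r = -0.865 with Cpsf6 and -0.837 with Cpsf7 on the deposited scale. After median-centring these became 0.646, -0.680 and 0.112, so the likeness of Cpsf7 to the other subunits depended on the scale.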

How the data were processed

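Paired-end RNA-seq libraries (NEBNext Ultra) of 8 BMDM samples were used, with 2 per genotype and time. Per the submitters' processing notes, reads were aligned to GRCm38 with HISAT2 2.2.1 and quantified with StringTie 2.1.7. The authors deposited 1 coverage signal per RefSeq gene and sample in 2 tables, whose unit they do not name. It was read from the values: multiplied by transcript length, 35.0% to 41.8% of low values with up to 6 decimals were whole numbers within 0.02, against 3.33% to 6.09% of values with more decimals. The number of reads behind a value is unknown, so no counting interval was computed, and the precision rests on 2 samples per group. The authors' fold changes and p-values were not used, and 0 columns of per-sample values were left out.

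Coverage was analysed as log2(coverage + 0.1) with limma 3.58.1 in R 4.3.3, over genes with a mean of at least 0.5, with Benjamini-Hochberg adjustment over all genes. Genotypes were compared within each time (2 against 2). Stimulation and the interaction were fitted on all 8 samples. A pseudocount understates changes of low genes. Calls between genotypes follow the rule in the study's methods (fold change above 1.5, p under 0.05). The test was checked on simulated data for the recovery of large planted changes, which gives no error rate for the real data. Alternatives covered the pseudocount, filter, scaling, variance estimate, samples fitted and left-out replicates.

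The members and gene lists were chosen with earlier results of these data known. Named genes were the subunits, list genes that were called or had the largest or smallest change, the 3 genes most like each subunit and the nearest 2 tested genes on either side. Gene positions and sequences came from GENCODE M21, which matched 20726 symbols, and the RefSeq 3′ end of Nudt21 from GRCm38.p6. Primers came from the study's supplementary primer list. Polyadenylation site usage was not analysed here. Some marker and neighbouring genes are not reported here.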

Additional observations from a re-analysis of the deposited data

Results flagged for a closer look

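For 2 of 20 Nudix family genes, where 3.05% of all genes passed, the genotype effect differed between the times by the interaction test of limma over all genes. Nudt19, which was called lower in cKO at 0 h and higher at 4 h, had an interaction of 1.37 on the log2 scale (adjusted p = 0.0452 from limma, 0.0168 to 0.189 over 16 alternatives). Unstimulated WT stood at 216 and 194, against 127 and 116 for cKO, and stimulated WT at 62.3 and 76.4, against 100.3 and 112 for cKO. Nudt13 had an interaction of 0.94 (adjusted p = 0.0445 from limma, 0.0187 to 0.171 over 16 alternatives), with log2 fold changes of 0.40 at 0 h and 1.34 at 4 h. The call of Nudt19 at 4 h was itself lost in 8 of 16 alternatives, with a log2 fold change of 0.62 that became 0.28 after median-centring and 0.27 under quantile normalization. The interaction passed in 4 of 16 alternatives for Nudt19 and in 3 of 16 for Nudt13, and its direction did not change in any of them.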

How the results depend on the processing

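With 2 samples per group and the number of reads unknown, precision is limited throughout, and a left-out sample leaves a lone sample that is assumed to vary like the others. Nudt21 and Cpsf6 kept their call under all 16 alternatives at each time, from -2.16 to -1.88 and 1.49 to 1.76 at 0 h and from -2.47 to -1.98 and 1.61 to 1.99 at 4 h (log2), with an adjusted p under 0.05 from limma in 9 of 16. The planned count test was not run because the tables do not hold counts. Centring on genes averaging 100 or more was chosen after seeing the data. The causes of the changes below were not tested.

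For genotype at 4 h, Cpsf7 lost its call at 0.37 (median-centred), 0.42 (quantile), 0.50 (equal summed coverage) and 0.41 (centred on genes averaging 100 or more), and at 0 h it gained one at 0.60 (scaled to Actb and Tubb5). In the same order of the first 4 settings, Papolg at 4 h was -0.23, -0.23, -0.10 and -0.19, genes called higher numbered 1552, 1530, 1941 and 1637, and genes called lower 1480, 1476, 1013 and 1342, with 386 lower under unmoderated variance. Leaving out 1 sample gave 1765 to 4000 higher genes, the lowest without cKO replicate 4 and 1996 without cKO replicate 3, and -0.011 to 0.23 for Papolg. Nudt3 at 0 h was -0.020 under quantile normalization, -0.019 under equal summed coverage and -0.014 under centring on abundant genes. With equal summed coverage the sum of the 3 subunits differed by 0.60 at 0 h and 0.61 at 4 h (log2).

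For stimulation, the values under median-centring, quantile normalization and centring on abundant genes were, in WT, 1.19, 0.38 and 0.58 for Nudt21, 0.62, -0.18 and 0.0085 for Cpsf6, and 1.13, 0.41 and 0.52 for Cpsf7. In cKO they were 0.83, 0.75 and 0.28 for Nudt21 and 1.13, 0.37 and 0.58 for Cpsf7, and 0.69 and 0.14 for Cpsf6 under the centrings. Genes called higher numbered 6080, 3931 and 4082 in WT and 5784, 3751 and 3797 in cKO, and genes called lower 3731, 5380 and 5958 in WT and, under the first 2 settings, 3765 and 5434 in cKO. Cpsf7 in WT passed at -0.34 with no filter or an intensity trend, and Nudt21 in cKO at -0.37 with the trend. Leaving out 1 sample gave -0.52 to -0.21 for Nudt21, which passed without cKO replicate 3 at 4 h (-0.52), and -0.21 to 0.066 for Cpsf7 in cKO.

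For the interaction, quantile normalization gave 0.37 for Nudt21, -0.36 for Cpsf6 and -0.036 for Cpsf7, and leaving out 1 sample gave -0.25 to 0.060 for Nudt21 and 0.13 to 0.40 for Cpsf7. Positive interactions numbered 746 with no filter, 174 median-centred, 210 quantile-normalized, 1035 with the trend and 117 to 546 without 1 sample. Negative ones numbered 247 with no filter and with the trend, 210 centred on abundant genes and 67 to 146 without 1 sample.

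WT and cKO share no replicate numbers, so genotype was not blocked. Deviations of same-numbered samples at 0 h and 4 h correlated at r = 0.053 in WT and 0.0579 in cKO across genes, below the 0.1 set for treating samples as pairs, and whether they share mice is not stated. With the replicate block Cpsf6 fell by 0.85 in WT (adjusted p = 0.00804 from limma) and by 0.51 in cKO (adjusted p = 0.0246 from limma), no subunit's call changed, and 15 positive and 16 negative interactions passed.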
